A study of Arabidopsis thaliana with 12 samples.

Results

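Transcripts that were highest at midday in both parents and both hybrids were examined in rosette leaves of Arabidopsis thaliana. For each locus a score was taken: the smallest, over 4 genotypes, of the level at zeitgeber time 6 (ZT6, hours after lights on) minus the higher of the levels at ZT0 and ZT15, in log2(RPKM + 1), where RPKM counts reads per kilobase of model and per unit of sequencing depth. The 150 nuclear loci with the highest score, of 32592 loci in all, were selected on these measured levels and are called members below. By the rule 8 nuclear loci were left out, 7 of which scored above the last member. The rule used every library, so the excess at ZT6 and the balance of ZT0 against ZT15 are given as descriptions without a test.

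4 genotypes were sampled. Col and C24 are inbred accessions, and their F1 hybrids were made in both directions, ColxC24 with Col as the mother and C24xCol with C24 as the mother. Plants of each genotype were taken before bolting, at 3 weeks, from soil under days of 16 h light (22 °C) and 8 h dark (20 °C). The labels name no transgene and no treatment. A single leaf mRNA library was made per genotype and time, 12 in all, so there is no replicate error, and p-values rest on the residual between genotypes and times. Levels of 4 libraries are given below in the order Col, C24, ColxC24 and C24xCol.

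Plants time transcription with a circadian clock, a set of transcription factors that repress or activate each other in sequence through the day. Light adds to this through photoreceptors, which act on bHLH and B-box transcription factors. The nuclear genes of the light-harvesting antenna, whose proteins bind chlorophyll around both photosystems, are a classic output of both inputs in leaves.

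The depth estimated from the smallest steps of the values was 16.6 M (Col at ZT0) to 26.5 M reads per library, and 1 read on 1 kb was worth at most 0.0602 RPKM. Of values under 3.5 reads, 35.7 to 40.6% came within 1% of whole reads. The summed level of 4 mesophyll markers, 2 of which (CAB3 and LHCA1) are members, was 31245 to 64048 RPKM per library. Root markers summed to 0 to 0.212 RPKM, seed markers to 0 to 0.183 RPKM and flower markers to 1.03 to 2.71 RPKM. In such bulk samples, fewer cells of a type and less RNA per cell cannot be told apart.

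Members spanned a wide range of expression. Their mean level at ZT6 ran from 1.15 to 20526 RPKM with a median of 28.8, and 16 members were above 1000 RPKM, 14 between 100 and 1000, 86 between 10 and 100, and 34 at or below 10. Together they held 10.0 to 14.7% of the summed RPKM of a library at ZT6, 3.04 to 4.44% at ZT0 and 2.68 to 3.42% at ZT15. The score ran from 5.03 to 0.62 with a median of 0.96, against a median of -0.31 over all loci scored, and 23 members scored above 2. Of the 17207 loci whose mean reached 1 RPKM, 835 (4.85%) were highest at ZT6 in all 4 genotypes. The last members were AT4G03400 (DFL2), AT1G17970 and ASP4, each at 0.62, and the first loci outside were AT2G20250 at 0.61, DIN9 at 0.60 and THI2.2 at 0.60.

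CIPK20 (AT5G45820), a CBL-interacting protein kinase of calcium signalling, had the highest score, 5.03, at least 32.6-fold on RPKM + 1 in each genotype. Its levels were 0.457, 0.139, 0.516 and 0.885 RPKM at ZT0, 50.8, 63.3, 48.5 and 63.9 at ZT6 and 0.239, 0.155, 0.161 and 0.158 at ZT15. The transcript was thus below 1 RPKM in all 8 libraries outside midday and close to the same height in all 4 genotypes at midday. MYBL2 (AT1G71030), a MYB protein that represses anthocyanin synthesis, came next with a score of 3.46 and 71.2, 47.4, 40.3 and 109 RPKM at ZT6. CYP71B26, a cytochrome P450, followed with 58.8, 32.0, 28.1 and 64.4 RPKM. Both were highest in C24xCol and lowest in ColxC24 at this time. EPR1, BBX28, CAB3, AT1G73480, LHB1B2, AT5G44050 and AT3G55240 completed the first 10.

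**Figure D1:**
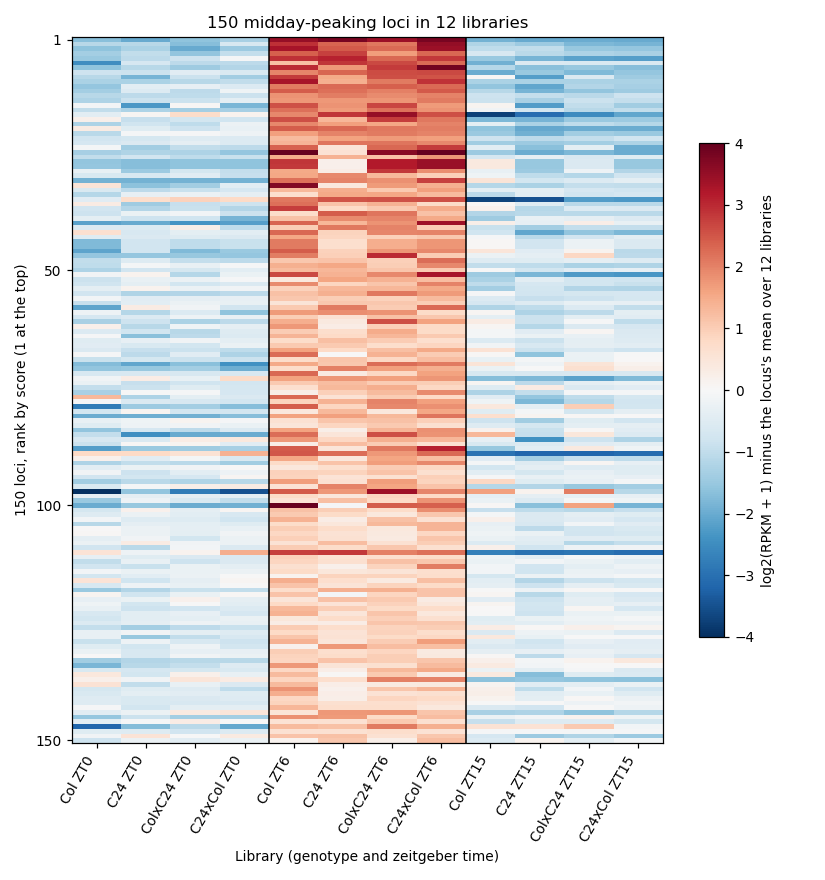
Each row is 1 of the 150 loci in order of score and each column 1 of the 12 libraries; the colour is log2(RPKM + 1) minus the mean of the locus over the 12 libraries. All 150 rows are highest at ZT6 in every genotype because the rule chose them so, while the rows differ in whether ZT0 or ZT15 is the lower flank.

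The height of the peak is compared between genotypes as a description, since the rule used it and each level is 1 library. Its median over members, on the log2 scale, was highest in C24xCol (1.65), followed by C24 (1.43), ColxC24 (1.42) and Col (1.37). Whole libraries shifted too. Over all tested loci the median of C24xCol minus ColxC24 was 0.195 in midday libraries, 0.045 in dawn libraries and 0.004 in evening libraries. That of C24 minus Col was -0.195, -0.016 and -0.155 in the same order. Whether the peaks of members differ beyond such shifts was not tested. The genotype with the lowest peak, which sets the score, was C24 in 54 members, Col in 44, C24xCol in 31 and ColxC24 in 21. The narrowest ranges over genotypes were those of AT5G57887, TTL4 and PHT4;1, a phosphate transporter of the chloroplast, at 0.07, 0.07 and 0.14. The widest were those of GolS1, NATA1 and AT1G53903, at 3.84, 3.71 and 3.24.

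Antenna proteins formed the most abundant group. Of 17 antenna genes on the list, 14 were highest at ZT6 in all 4 genotypes and 11 were members: CAB1, CAB2, CAB3, LHB1B1, LHB1B2, LHCB3, LHCB5 and LHCB6 of photosystem II and LHCA1, LHCA3 and LHCA4 of photosystem I. The 5 members with the highest level at ZT6 were all in this group. CAB1 (AT1G29930) stood at 7770.4, 9471, 10882 and 12539.5 RPKM at ZT0, 14158, 23584, 23579.8 and 20783 at ZT6 and 7929, 10938, 11138 and 12168 at ZT15. Its flanks were thus high, and its score was 0.73. Its neighbour CAB2 (AT1G29920) was at 1459.9, 3229.8, 3763 and 3458 RPKM at ZT0, 8643, 11388, 11631 and 11885 at ZT6 and 151, 178, 423 and 407 at ZT15, so that the evening level was far below the dawn level in every genotype. CAB3 (AT1G29910) was at 362, 1288, 993 and 980.4 RPKM at ZT0, 4751, 14904, 12742 and 9779 at ZT6 and 537, 1382, 1353 and 1347 at ZT15. Col was the lowest of the 4 genotypes in CAB3 at each time. LHB1B1, which lies beside LHB1B2, was at 2395, 4531, 6993 and 3792 RPKM at ZT6 and 46.8, 75.3, 108 and 149 at ZT15.

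Reads of these copies can be shared. Of all 84-base windows, the read length, CAB3 shared 2.89% with CAB2, CAB2 shared 5.61% with CAB1, and LHB1B2 shared 7.48% with LHB1B1. In turn, CAB1 shared 6.02% with CAB2. These shares do not bound the error, which also depends on the level of the other copy. At ZT15 CAB1 was at 7929 to 12168 RPKM and CAB2 at 151 to 423, so CAB2 is the more exposed. EPR1 shared 42.4% of its windows with AT3G10113, and the members AT1G53903 and AT1G53885 were identical over their whole transcripts. The values of this pair differed by at most 0.0133 on log2(RPKM + 1), and those of AT2G43018 and PAO2 by at most 0.0027. Each of these 2 pairs is 1 measurement, although the counts of members below hold both loci. The kit named in the labels is not stated to keep the strand, and 50 members overlap another annotated gene, whose reads cannot be told apart from theirs.

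5 subunits of the photosystem cores were members as well: PSAD-2, PSAF, PSAH2 and PSAO of photosystem I and PSBW of photosystem II. PSAO stood at 1399, 1971, 2257 and 2138 RPKM at ZT0, 3756, 5509.8, 5552 and 5242 at ZT6 and 1664, 1849, 2123 and 2098 at ZT15, with Col the lowest at each time. Lists of the Calvin cycle (19 genes in the files), carotenoid synthesis (22), plastid gene expression (22), nitrogen assimilation (18), flavonoids (21), photoprotection (18), heat shock (33), glucosinolates (27), sulphur assimilation (23), ribosome biogenesis (15) and salicylic acid (26) held 0 members. The median score of the antenna list was 1.15, that of the Calvin cycle list -0.79 and that of all loci tested -0.66. Of its tested genes, the Calvin cycle list had 0 that were highest at ZT6 in all 4 genotypes. The glucosinolate list had 9 of 25 tested genes and the jasmonate list 8 of 19.

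6 members belong to the clock and the measurement of day length. GI (AT1G22770), a protein that links the clock to flowering, was listed at 0.0144, 0.0105, 0 and 0 RPKM at ZT0, and was at 16.4, 13.7, 12.2 and 23.8 at ZT6 and 4.31, 1.24, 1.53 and 1.88 at ZT15. It was close to 0 in every genotype at dawn and kept a part of its level in the evening, most in Col. LNK3 and LNK4, relatives of the LNK coactivators that work with RVE proteins, had the opposite balance. LNK3 was at 16.2, 16.1, 13.8 and 25.0 RPKM at ZT0, 54.1, 45.9, 32.0 and 46.8 at ZT6 and 0.276, 0.0996, 0.103 and 0.169 at ZT15. LNK4 was at 12.8, 7.18, 9.25 and 24.6 RPKM at ZT0, 60.9, 66.4, 36.6 and 42.5 at ZT6 and 0.415, 0.192, 0.233 and 0.130 at ZT15. Both were high at dawn, higher at midday and near 0 in the evening in all 4 genotypes. EPR1, a MYB protein related to CCA1, had 22.0, 28.3, 12.9 and 20.4 RPKM at ZT6 and at most 1.84 in the other 8 libraries. CDF3, a DOF protein of a family that represses CONSTANS, was at 67.3, 58.1, 50.6 and 70.0 RPKM at ZT6, and ELF4-L2, a relative of the clock protein ELF4, at 13.6, 13.5, 10.5 and 12. Neither EPR1 nor CDF3 had a library outside midday that reached the lowest midday library. Of 23 clock genes in the files, 4 were members, and the median score of that list was -2.45.

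Light signalling, as a role given by hand, was represented by 4 B-box proteins, 2 bHLH proteins and MYBL2. Of 31 genes of the light signalling list in the files, 3 were members (LZF1, PIL6 and STO). The median score of that list was -0.44. STO (BBX24), which acts in de-etiolation and UV-B responses, was at 22.7, 31.4, 26.9 and 46.6 RPKM at ZT0, 212, 172, 161 and 218 at ZT6 and 42.1, 22.5, 26.5 and 24.4 at ZT15. LZF1 (BBX22), a promoter of photomorphogenesis, was at 0.931, 0.982, 1.04 and 1.35 RPKM at ZT0, 22.3, 23, 17.8 and 32.6 at ZT6 and 11.3, 7.26, 6.98 and 6.68 at ZT15. Both had their highest library in C24xCol at ZT6, and LZF1 kept more of its midday level in the evening. BBX28 was at 38.4, 42.7, 24.4 and 36.0 RPKM at ZT6, and BBX29 at 8.54, 9.51, 6.15 and 12.5. PIF7 and PIL6 (PIF5) are bHLH factors that bind light-activated phytochrome B and promote elongation. PIL6 was at 15.4, 21.6, 13.7 and 30.0 RPKM at ZT0, 54.5, 61.7, 56.1 and 61.2 at ZT6 and 4.61, 4.31, 3.12 and 4.38 at ZT15. Its dawn levels were above its evening levels in every genotype.

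**Figure D2:**
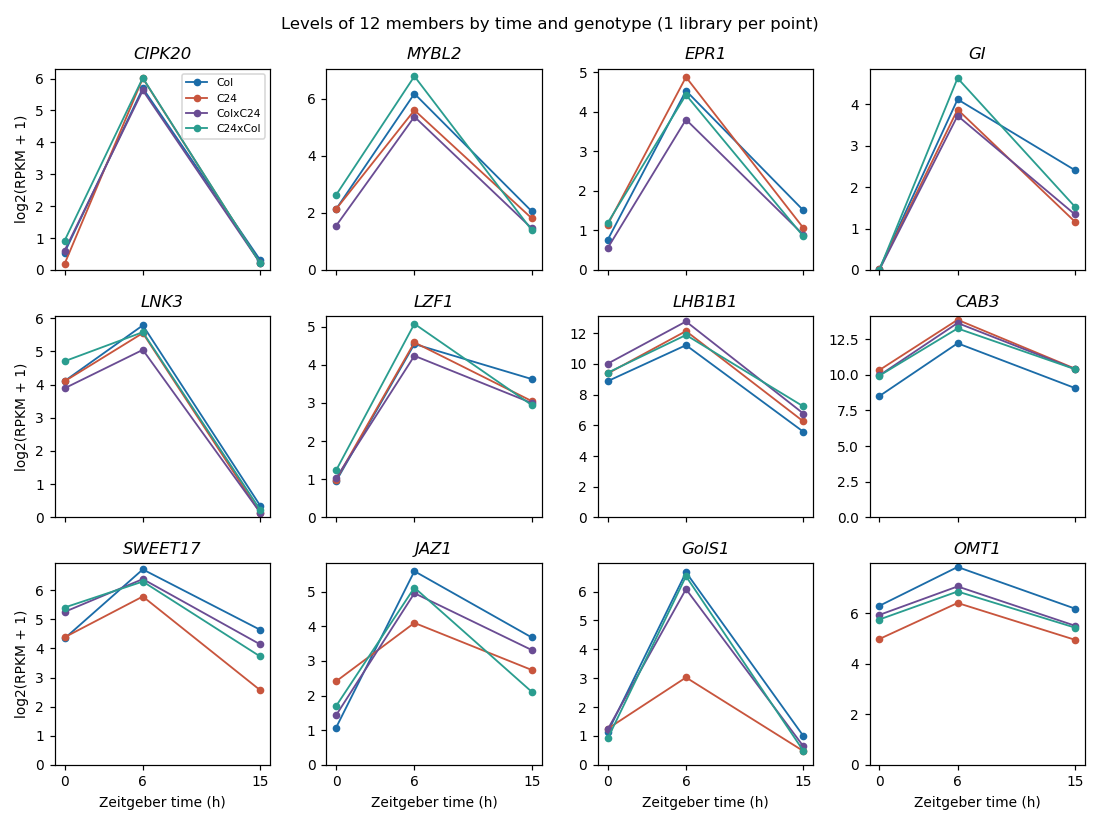
Levels of 12 members in log2(RPKM + 1) against zeitgeber time in hours, with 1 line for each genotype and 1 library at each point, so there are no error bars. CIPK20 is near 0 at both flanks, GI is listed near 0 at ZT0, LNK3 is near 0 at ZT15, and GolS1 and JAZ1 have a low midday point in C24.

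Short sequence words known as binding sites of such regulators were searched on both strands of the 300 bases before the start of each gene in RefSeq TAIR10.1, in 149 members and in 17013 of the loci tested. The evening element AAAATATCT, bound by CCA1, LHY and RVE proteins, was present in 14 members (9.4%) and in 3% of all tested loci. It was found in 0 of 16 antenna and photosystem members and in 3 of 13 clock and light signalling members. The G-box CACGTG, bound by bHLH and bZIP proteins, was present in 21 members (14.1%) and in 8.02% of all. The core ACGTG, which is part of the G-box, was in 33.6% of members and 25.7% of all, and the morning element CCACAC in 11.4% and 7.29%. The CCA1 binding site AAAAATCT (9.4 and 8.11%), the I-box GATAAG (14.8 and 14.9%), the heat shock element GAANNTTC (10.7 and 11.4%), the C-repeat CCGAC (18.1 and 15.2%), the TCP site GGNCCC (10.7 and 9.5%), the GCC-box GCCGCC (1.34 and 2.45%) and the bZIP site TGACG (19.5 and 22%) were within a few percentage points of all tested loci. Lower shares than in all loci were seen for the protein box GGCCCA (6.04 and 18.7%), the telo-box AAACCCTA (0.671 and 4.51%) and the W-box as TTGACC (8.72 and 13.6%) or TTGACT (16.1 and 20.8%). These shares are descriptions without a test, a match is not a shown binding site, and neighbouring members can share 1 window.

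**Figure D3:**
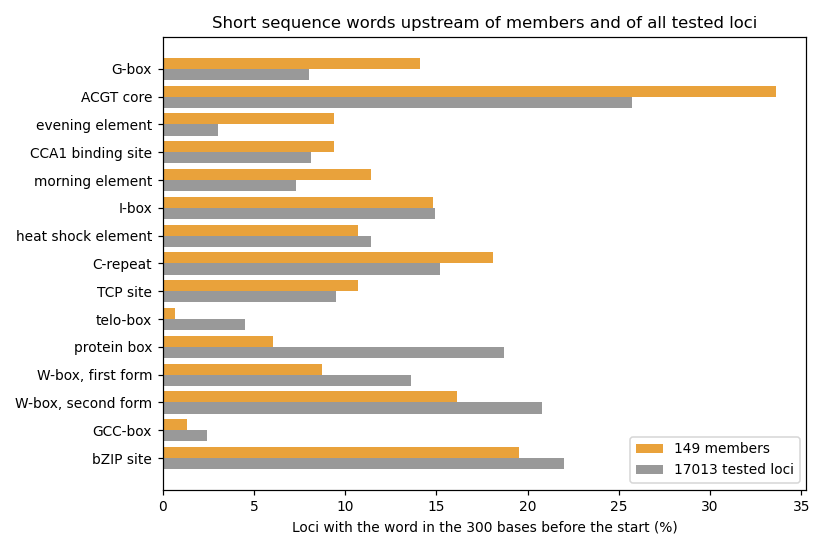
Bars give the percentage of loci with each word in the 300 bases before the start, for 149 members and for 17013 tested loci. The evening element is at 9.4 against 3%, the G-box at 14.1 against 8.02%, and the protein box at 6.04 against 18.7%.

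The evening element is shown for 4 members, 3 of them regulators, and each window ends at the last base before the start of the gene. Sequences are RefSeq TAIR10.1, 5′ to 3′ on the strand of the gene, and capitals mark AAAATATCT or its reverse complement. Levels of these members differed widely, since at ZT6 GPT2, a transporter of sugar phosphate into plastids, was at 9.86, 8.96, 4.13 and 6.16 RPKM and STO above 160 in each genotype.
MYBL2 (chr1:26796533-26796772, minus strand): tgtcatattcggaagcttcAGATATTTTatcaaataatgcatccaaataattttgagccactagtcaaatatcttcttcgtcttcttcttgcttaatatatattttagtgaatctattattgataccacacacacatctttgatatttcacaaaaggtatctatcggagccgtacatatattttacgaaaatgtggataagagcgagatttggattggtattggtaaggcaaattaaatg
EPR1 (chr1:6308244-6308363, minus strand): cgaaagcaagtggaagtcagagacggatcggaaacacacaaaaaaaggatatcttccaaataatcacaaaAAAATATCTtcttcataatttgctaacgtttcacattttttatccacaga
STO (chr1:1829984-1830103, minus strand): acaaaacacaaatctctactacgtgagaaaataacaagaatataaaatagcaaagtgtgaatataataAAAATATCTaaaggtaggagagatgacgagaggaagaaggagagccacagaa
GPT2 (chr1:22824294-22824413, plus strand): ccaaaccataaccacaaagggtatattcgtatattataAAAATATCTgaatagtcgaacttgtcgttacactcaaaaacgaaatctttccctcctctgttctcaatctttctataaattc

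G-boxes, in capitals, are shown for the member with the strongest fall from ZT0 to ZT15, for a bHLH factor and for 2 photosystem members. LNK3 and PSAH2 hold the word more than once in these windows.
LNK3 (chr3:3923315-3923514, plus strand): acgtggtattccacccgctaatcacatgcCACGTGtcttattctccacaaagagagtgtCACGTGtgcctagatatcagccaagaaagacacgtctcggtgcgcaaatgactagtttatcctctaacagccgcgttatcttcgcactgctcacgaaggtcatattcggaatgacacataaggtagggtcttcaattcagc
PIL6 (chr3:21830838-21831037, minus strand): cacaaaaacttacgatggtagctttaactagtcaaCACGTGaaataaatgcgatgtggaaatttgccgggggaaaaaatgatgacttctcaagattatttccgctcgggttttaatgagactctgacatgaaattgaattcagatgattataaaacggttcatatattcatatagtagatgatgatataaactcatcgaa
LHCA4 (chr3:17495034-17495153, minus strand): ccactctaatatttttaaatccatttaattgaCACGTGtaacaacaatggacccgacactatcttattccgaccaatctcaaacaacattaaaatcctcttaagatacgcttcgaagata
PSAH2 (chr1:19454678-19454797, plus strand): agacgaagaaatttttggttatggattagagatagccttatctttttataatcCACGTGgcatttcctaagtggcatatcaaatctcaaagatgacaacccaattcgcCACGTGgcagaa

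The balance of the flanks differed between members. ZT0 was above ZT15 in all 4 genotypes in 43 members, ZT15 was above ZT0 in all 4 in 41, and 66 were mixed or equal. The same counts were not taken over all tested loci, so these 3 are descriptions of the members only. By a rule of at least 2-fold on RPKM + 1 in every genotype, 9 members had the higher level at ZT0, with a share of 3.55% over all tested loci, and 9 at ZT15, with a share of 1.92%; the choice of members used these levels. The first group was LNK3 (at least 13.4-fold), CAB2 (8.49-fold), LNK4 (6.86-fold), LHB1B1 (4.60-fold), PIL6 (2.92-fold), AT3G07350, AT1G66760, AT1G76240 and J11. The second was ATCSLA15 (3.81-fold), ANNAT4 (3.66-fold), AT1G14250 (3.31-fold), LZF1, NUDT8, VHA-E3, MSRB6, GI and AT1G18360. ANNAT4, a calcium-binding annexin, was at 7.0, 5.32, 7.40 and 3.91 RPKM at ZT0, 75.5, 54.7, 123 and 112 at ZT6 and 36.8, 22.1, 36.6 and 28.3 at ZT15. Adjoining copies could differ in this balance, as CAB2 was in the first group and CAB3 in neither.

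**Figure D4:**
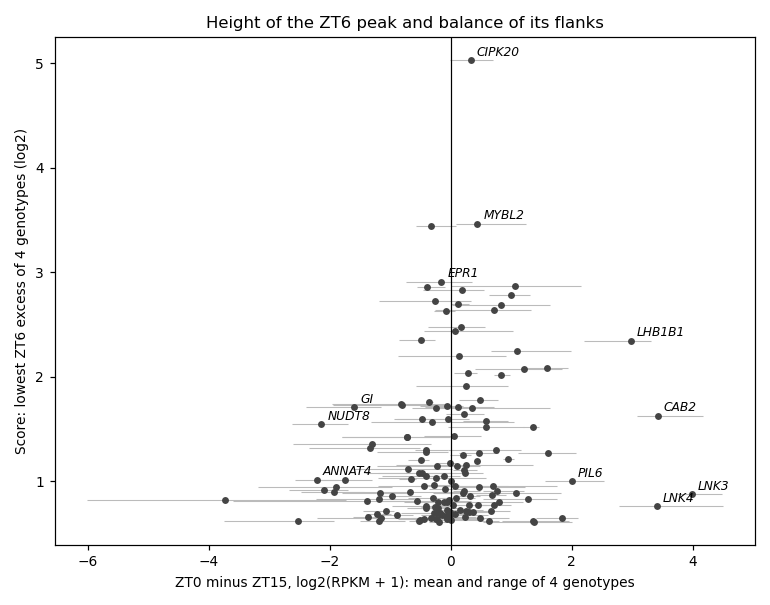
Each point is 1 member, with its score on the vertical axis and the mean over 4 genotypes of ZT0 minus ZT15 in log2(RPKM + 1) on the horizontal axis; the grey line is the range over the 4 genotypes. LNK3, LNK4, CAB2 and LHB1B1 lie far to the right, and CIPK20 and EPR1 lie near 0.

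Members with a role in jasmonate and defence and in sugar metabolism were grouped by hand after the members were known. The jasmonate list itself held 2 members, AOC1 and JAZ1. Loci of a group come from the same libraries, with 1 of C24 at ZT6, so they do not replicate each other. The jasmonate and defence group held AOC1, JAZ1, NATA1, JAL23, PGIP2, ORA47 and CML38. At ZT6 ORA47 was low in every genotype (2.24, 1.19, 3.47 and 4.26 RPKM). So was CML38 (2.14, 1.47, 1.64 and 1.75 RPKM), where C24 was lowest by a small margin. At ZT6 all 7 members of the group were lowest in C24, against 26.2% of all loci tested. With quantile normalization it was 6 of 7. At the flanks this was not so: C24 was the lowest in 0 of 7 at ZT0 (22.9% of all loci tested) and in 1 of 7 at ZT15 (46.5%), and the median difference of C24 from Col on the log2 scale was 0.49 at ZT0, -1.49 at ZT6 and -0.79 at ZT15. The summed level of the 7 at ZT6 was 131 RPKM in C24 and 473, 445 and 473 in Col, ColxC24 and C24xCol. JAZ1, a repressor of jasmonate responses, was at 1.11, 4.32, 1.70 and 2.24 RPKM at ZT0, 47.3, 16.1, 30.1 and 33.7 at ZT6 and 11.8, 5.67, 8.94 and 3.30 at ZT15. AOC1, an allene oxide cyclase of jasmonate synthesis, was at 5.61, 9.85, 10.3 and 11.1 RPKM at ZT0, 164, 40.8, 129 and 260.4 at ZT6 and 9.62, 21.6, 38.4 and 25.5 at ZT15. Both JAZ1 and AOC1 were lowest in C24 at midday, and AOC1 was highest in C24xCol. NATA1, an acetyltransferase that acts on ornithine, was at 0, 0.400, 0 and 0.0394 RPKM at ZT0, 92.3, 2.87, 20.3 and 19.7 at ZT6 and 3.06, 0.248, 11.2 and 0.0843 at ZT15. Its midday level in Col was thus the highest and that in C24 the lowest, with both hybrids between. Of 7 members in sugar and carbon metabolism, 4 were lowest in C24 at ZT6, while PGL5, at 29.9 RPKM in Col but 49.8 in C24, and SWEET16, at 4.87 RPKM in Col but 6.04 in C24, were higher in C24 than in Col. GolS1, a galactinol synthase, was at 1.19, 1.38, 1.34 and 0.879 RPKM at ZT0, 100.6, 7.13, 66.8 and 91.3 at ZT6 and 0.993, 0.388, 0.557 and 0.395 at ZT15. Both hybrids lay between the parents at midday and closer to Col. None of JAZ1, AOC1, NATA1 and GolS1 was called between the parents in the test over all times.

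Smaller groups covered growth, lipids and redox chemistry, and 61 of the 150 members in all were given a role. FER1, a ferritin that stores iron in plastids, was at 61.4, 27.7, 31.9 and 30.2 RPKM at ZT0, 319, 136, 369 and 234 at ZT6 and 14.7, 14.0, 18.5 and 18.8 at ZT15. C24 was the lowest of 4 genotypes at midday, and all 4 evening levels were below the dawn levels. MSRB6, a methionine sulphoxide reductase, was at 117, 283, 218 and 189 RPKM at ZT6, and VTC4, an enzyme of ascorbate synthesis, at 51.8, 99.8, 85.5 and 65.4. Both were highest in C24 at midday and lowest in Col. AXR3, a repressor of auxin responses, was at 69.1, 109.7, 71.4 and 91.6 RPKM at ZT6, and GA20OX1, an oxidase of gibberellin synthesis, at 3.15, 0.824, 1.26 and 1.36. GA20OX1 was highest in Col, whereas AXR3 was highest in C24. PPCK1, a kinase of phosphoenolpyruvate carboxylase, was at 66.2, 27.9, 30.2 and 46.6 RPKM at ZT6, and the fatty acid desaturase ADS2 at 140.1, 114, 130.0 and 138. PPCK1 was highest in Col, and ADS2 varied little over genotypes.

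At a single time a rule of size was used in place of a test. At ZT6, 38 members were at least 2-fold lower in C24 than in Col on RPKM + 1, where 7.6% of all tested loci were, and 9 were higher, where 2.92% were. At ZT0 the counts were 15 lower (5.34% of all) and 11 higher (6.68%), and at ZT15 29 lower (6.53%) and 3 higher (4.46%). With each pair of loci of the same values counted once, the lower members were 36 at ZT6 and 28 at ZT15. The 26 members past the rule at ZT0 in either direction (12% of all) became 47 with a pseudocount of 0.1 (15.9%). The widest gaps at ZT6 were NATA1 (24.1-fold), GolS1 (12.5-fold) and AT1G62510 (9.78-fold) below Col, and GDPD6 (3.19-fold), CAB3 (3.14-fold) and AT1G61795 (2.94-fold) above. At ZT0 GPX7, a glutathione peroxidase, was at 3.82 RPKM in Col but 25.0 in C24, and AT1G14250 was at 0.616 RPKM in Col but 10.2 in C24. At ZT15 AT1G13650 was at 20.5 RPKM in Col but 3.25 in C24, and PGL5, a phosphogluconolactonase, at 4.05 RPKM in Col but 10.1 in C24. These are values of single libraries.

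The test of the parents asked which members differed between C24 and Col over all 3 times. It was fitted with limma to all 17207 loci, of which 145 were members; the members CML38, DOG1, GA20OX1, PORA and AT3G52748 were below the mean of 1 RPKM and were not tested. Of the 145, 30 (20.7%) were called at an adjusted p under 0.05, against 13.6% of all tested loci. C24 was higher in 7 members (4.83%, against 4.46% of all) and lower in 23 (15.9%, against 9.12%). How reads with C24 variants were treated is not given, and whether it bears on these counts was not tested. The median change of tested members was -0.21 and that of all tested loci -0.12. Each of the 30 had the same sign at all 3 times. The count rested in part on single libraries and times: without C24 at ZT15 it was 19 (6.29% of all loci), without the 4 libraries of ZT15 10 (2.95%) and without those of ZT0 15 (4.45%).

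CAB3, with the levels given above, was the clearest of the 7 that were higher in C24 (log2 change 1.61, SE 0.13, adjusted p = 4.1e-05). LHCB6, a minor antenna protein of photosystem II, was at 894, 3093 and 948 RPKM in Col, ordered ZT0, ZT6, ZT15 here and below, and 1568, 5586 and 1474 in C24 (log2 change 0.77, SE 0.14, adjusted p = 0.0066). Without the 4 libraries of ZT0 its call was lost (adjusted p = 0.093). AT1G08390 was at 4.65, 12.7 and 3.29 RPKM in Col against 7.42, 29.8 and 6.65 in C24 (log2 change 0.86, SE 0.15, adjusted p = 0.0061). It lost its call without ZT15 (adjusted p = 0.10). CAB1 (log2 change 0.50, SE 0.12, adjusted p = 0.026) and PSAO (log2 change 0.40, SE 0.11, adjusted p = 0.043) changed less. The CAB1 call was lost without any 1 of 5 libraries (Col or C24 at ZT6 or ZT15, or Col at ZT0), and the PSAO call without any 1 of 10, the exceptions being Col at ZT15 and C24xCol at ZT6. The remaining calls were ASP4, an aspartate aminotransferase (0.74), lost without Col at ZT0 or ZT6 or C24 at ZT6 or ZT15, and AT5G57345 (0.53), lost without any 1 of 8 libraries, all but C24xCol at ZT6 or ZT15 and C24 or ColxC24 at ZT6. With quantile normalization the change was 0.11 for CAB1 and 0.10 for PSAO.

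OMT1 (AT5G54160), a methyltransferase of lignin and flavonol precursors, was lower in C24 at every time, at 77.7, 228 and 71.9 RPKM in Col against 30.6, 84.1 and 30.0 in C24 (log2 change -1.33, SE 0.13, adjusted p = 0.00012). Both hybrids lay between the parents at ZT0, ZT6 and ZT15. SVB, a regulator of trichome growth, was at 99.8, 181 and 97.7 RPKM in Col against 44.2, 76.7 and 22.2 in C24 (log2 change -1.49, SE 0.19, adjusted p = 0.00085). RCI2B, a small membrane protein induced by cold, was at 6.19, 12.9 and 1.12 RPKM in Col against 0.237, 3.33 and 0 in C24 (log2 change -1.77, SE 0.28, adjusted p = 0.003). CAB3, OMT1, SVB, RCI2B and AR781 (log2 change -1.11, SE 0.17, adjusted p = 0.0024) were the 5 members whose calls held in every alternative run that tested them. RCI2B, with a mean of 3.02 RPKM, was not tested in the run with a minimum mean of 5 RPKM. A pseudocount of 0.1 moved the change of RCI2B to -3.25 (and that of AT1G66760, described next, to -2.21).

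VHA-E3, a subunit of the vacuolar proton pump, was at 9.04, 90.9 and 48.4 RPKM in Col against 2.57, 26.3 and 9.37 in C24 (log2 change -1.83, SE 0.31, adjusted p = 0.005). ZW9 (log2 change -1.62, SE 0.29, adjusted p = 0.0068), AT5G44050 (log2 change -1.43, SE 0.26, adjusted p = 0.0065) and AT1G66760 (log2 change -1.32, SE 0.19, adjusted p = 0.0019) were lower too, and all 4 lost the call only when the ZT15 libraries were left out (adjusted p = 0.10, 0.061, 0.066 and 0.063). AT1G62510 had the largest change among the called members, with 6.23, 65.2 and 1.32 RPKM in Col against 0.632, 5.77 and 1.08 in C24 (log2 change -1.86, SE 0.49, adjusted p = 0.034). Its levels at ZT15 were close, the change was -1.15 without ZT6, and the call was lost without any 1 of 5 libraries (Col or C24 at ZT0 or ZT6, or ColxC24 at ZT6). AT1G13650 (log2 change -1.76, SE 0.33, adjusted p = 0.0084) lost its call without C24 at ZT15 (adjusted p = 0.051) and without either flanking time. ILL6, an amidohydrolase of auxin and jasmonate conjugates (log2 change -1.47, SE 0.42, adjusted p = 0.049), lost it without any 1 of 10 libraries, the exceptions being C24xCol at ZT6 and at ZT15. SMT3, a sterol methyltransferase, was at 15.4, 58.7 and 12.3 RPKM in Col against 3.85, 27.2 and 7.95 in C24 (log2 change -1.14, SE 0.23, adjusted p = 0.011). It lost its call without Col at ZT0 (adjusted p = 0.051) or without all of ZT0 (0.10).

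PIF7 and the miRNA locus MIR167d were called lower in C24 as well, each with little margin. PIF7 was at 8.94, 39.4 and 12.5 RPKM in Col against 8.34, 24.2 and 5.64 in C24 (log2 change -0.60, SE 0.17, adjusted p = 0.046). Its call was lost without any 1 of 10 libraries, all but Col and C24 at ZT0, and the change was -0.39 without ZT15. MIR167d was at 0.557, 6.13 and 2.45 RPKM in Col against 0.216, 3.06 and 0.277 in C24 (log2 change -0.87, SE 0.24, adjusted p = 0.045). Its call was lost without any 1 of 8 libraries, those that could be left out being Col and C24 at ZT0 and C24xCol at ZT6 and ZT15. The change was -0.55 without Col at ZT15 and -1.60 with a pseudocount of 0.1. These are reads of the longer primary transcript in mRNA libraries, not of the mature miRNA. Its mature product, of a family that targets auxin response factors, is shown with its seed, bases 2 to 8, in capitals (RefSeq TAIR10.1, chr1:11137556-11137577, plus strand).
miR167d: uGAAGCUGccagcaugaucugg

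**Figure D5:**
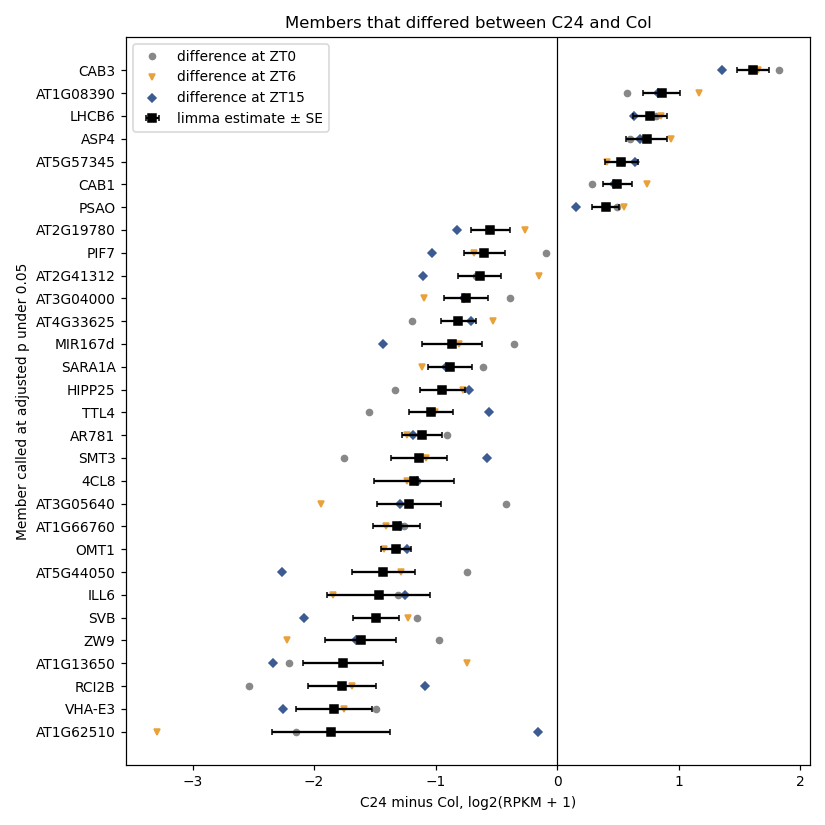
The 30 members called between C24 and Col, with the limma estimate of C24 minus Col in log2(RPKM + 1) and its standard error (squares and bars) and the difference at each time (coloured points, 1 library for each parent). The 7 above 0 lie between 0.40 and 1.61 and the 23 below 0 between -0.55 and -1.86; the points of AT1G62510 are the most spread over times.

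The next comparison set the hybrids of opposite cross direction against each other. With limma, 0 of 145 members were called between C24xCol and ColxC24, and 0 (0%) of all tested loci. At an unadjusted p under 0.05 there were 15 members (10.3%), against 771 of all tested loci (4.48%). FH3, a formin that acts on actin, had the smallest p, with 11.1, 4.69, 22.1 and 4.99 RPKM at ZT6 (log2 change -1.28, SE 0.36, adjusted p = 0.74). ColxC24 was the highest of 4 at this time, but the change did not pass the test. MYBL2 was higher in C24xCol at ZT0 and ZT6 and not at ZT15 (log2 change 0.81, SE 0.27, adjusted p = 0.74).

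Against the mid-parent, the mean of Col and C24, 0 of 145 members were called, against 0.0465% of all tested loci; 24 members (16.6%) and 12.8% of all had an unadjusted p under 0.05. With the mid-parent taken on the log2 scale, CAB3 was called (log2 change 0.53 ± 0.09 SE, limma adjusted p = 0.047), against 0.523% of all tested loci. In 10 of 11 antenna members the mean of the hybrids was above the mid-parent at all 3 times. It was so in 5 of 5 photosystem members and in 6.33% of all tested loci. With median-of-ratios scaling it was again 10 and 5, against 13.6% of all, and with quantile normalization 8 and 3, against 15.2%. These genes come from the same libraries, so their counts are not independent of each other. The summed antenna level was lowest in Col at each time. LHCB3 was at 493, 1084, 1147 and 993 RPKM at ZT0, 6188, 6984, 7686 and 6995 at ZT6 and 485, 346, 638 and 582 at ZT15 (log2 change 0.38, SE 0.10, adjusted p = 0.24). CAB2 (log2 change 0.73, SE 0.18, adjusted p = 0.24) and LHB1B1 (log2 change 0.73, SE 0.22, adjusted p = 0.26) did not pass either. SMT3 was the member with the smallest p and lay below the mid-parent at each time (log2 change -0.72, SE 0.13, adjusted p = 0.24). At ZT6 it was at 58.7, 27.2, 32.6 and 20.9 RPKM, and C24xCol was the lowest.

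Few members had both hybrids outside the range of the parents by at least 1.5-fold. At ZT0 it was SWEET17 alone, a fructose transporter of the vacuole, at 19.3, 19.9, 37.3 and 41.5 RPKM (0.0523% of all tested loci were above). At ZT6 they were AT3G07350, at 7.05, 6.01, 16.9 and 16.5 RPKM, and PORA, a protochlorophyllide reductase, at 0.856, 0.885, 2.25 and 2.22 (0.134% of all). PORA, with a mean of 0.65 RPKM over all libraries, is itself not among the tested loci of that share, and its levels rest on few reads. At ZT15 they were CAB2, with levels given above that may hold reads of CAB1, and P5CS1, an enzyme of proline synthesis. P5CS1 was at 26.9, 32.9, 62.4 and 61.7 RPKM (0.174% of all tested loci were above). In each case both hybrids were above both parents. At no time was a member 1.5-fold below both parents. This is near the shares of all tested loci, which were 0.331, 0.715 and 0.163% at ZT0, ZT6 and ZT15. The counts of members outside the parents changed with the pseudocount and the fold at each of the 3 times, and with the scaling at ZT0 and ZT6.

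With no limit on the fold, both hybrids were above both parents in 32 members at ZT0, 25 at ZT6 and 24 at ZT15, where 6.38, 5.7 and 11.3% of all tested loci were. They were below both parents in 11, 12 and 16 members, where 24.5, 19 and 12.9% of all were. The background itself depended on the scaling. With median-of-ratios scaling, 41 members were above and 6 below at ZT0, against 14 and 12.9% of all loci, and 31 above and 5 below at ZT6, against 13 and 13.9%. With quantile normalization the counts were 35 above and 5 below at ZT0, against 15.1 and 10.9% of all loci, and 27 above and 7 below at ZT6, against 12.1 and 15%. Between both parents were 56 members at ZT0 (30% of all loci), 47 at ZT6 (20.9%) and 67 at ZT15 (49.5%).

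Some members were neighbours. In RefSeq TAIR10.1, 9 pairs of members adjoined each other, with 16 members in all, and 60 of 149 members lay on chromosome 1, which held 26.4% of all tested loci. CAB3 (chr1:10472280-10473502), CAB2 (chr1:10474656-10475969) and CAB1 (chr1:10477885-10479114) stood in a row, as did LHB1B2 and LHB1B1 on chromosome 2 and ANNAT4 and ANNAT3 on the same chromosome. CIPK20 adjoined DOG1, a regulator of seed dormancy, which was at 1.22, 0.764, 1.37 and 1.24 RPKM at ZT6. GPT2 adjoined AT1G61795. The median transcript of members was 1457 bases with 3 exons, against 1757 bases and 5 exons in all tested loci.

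In 2 pairs with opposite strands the starts were close. PSAO (chr1:2640803-2641934, minus strand) and AT1G08390 (chr1:2642072-2643285, plus strand) were separated by 137 bases, and both were called higher in C24. LHCB6 (chr1:5446462-5447880, minus strand) and AT1G15830 (chr1:5448060-5450617, plus strand) were separated by 179 bases, and AT1G15825 overlapped AT1G15830 on the other strand. Both shared intervals are shown whole, read on the strand of the photosystem gene. Capitals mark the CCA1 binding site AAAAATCT in the first, and the G-box CACGTG, the I-box GATAAG and the reverse complement of the morning element CCACAC in the second.
PSAO to AT1G08390 (chr1:2641935-2642071, minus strand): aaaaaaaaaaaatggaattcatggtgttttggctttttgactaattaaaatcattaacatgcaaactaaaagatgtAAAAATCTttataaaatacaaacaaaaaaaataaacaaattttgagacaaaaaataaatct
LHCB6 to AT1G15830 (chr1:5447881-5448059, minus strand): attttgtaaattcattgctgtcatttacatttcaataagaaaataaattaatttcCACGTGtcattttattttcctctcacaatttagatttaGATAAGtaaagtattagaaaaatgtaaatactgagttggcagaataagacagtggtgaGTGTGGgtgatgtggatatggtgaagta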

How the data were processed

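Messenger RNA of rosette leaves was sequenced in 12 libraries with 84 bp reads, 1 for each of 4 genotypes at 3 times. The deposited values are RPKM per gene model, per the file headers, for 38710 models. The build was TAIR9, per the submitters' processing notes; the sources used here do not give the aligner, the counting of shared reads or the treatment of C24 variants. RPKM of the models of a locus were summed. Names, positions and sequences came from RefSeq TAIR10.1, which holds 149 of 150 members; as background, the nuclear assembly was kept between those releases while gene models changed.

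Loci whose mean reached 1 RPKM entered the test on log2(RPKM + 1), so fold changes of low genes are understated, with limma 3.58.1 in R 4.3.3 (mean-variance trend, two-sided, Benjamini-Hochberg over 17207 loci, threshold 0.05). Parents and reciprocal hybrids shared a model with genotype and time as additive terms over 12 libraries. For the mid-parent, parental RPKM were averaged at each time and set against both hybrids over 9 columns. The fits were tested on simulated data. With 1 library for each group, p-values measure only the residual spread of genotype and time. RPKM carries no counting interval, and depth was estimated from the steps of low values. Python 3.11.15 and matplotlib 3.10.9 were used for the rest.

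The members, the 22 gene lists (539 of 566 symbols in the files) and the roles of 61 members were chosen with earlier results of these data known. Named genes were the first 10 by score, those beside the threshold, the 5 with the highest level, up to 4 members of each list, up to 10 called in each direction of a test, the widest gaps at a single time, the extremes of the range over genotypes, and neighbours. Genes named for their role beyond these were picked after their values were seen. Other scalings, pseudocounts, filters and omissions of a time or a library were tried.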

Additional observations from a re-analysis of the deposited data

How the results depend on the processing

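Between C24 and Col 30 members were called (13.6% of all loci tested). With a minimum mean of 5 RPKM, 112 members were tested in place of 145, and 19 were called (10.6% of all). There were 15 without ZT0 (4.45%) and 10 without ZT15 (2.95%). When 1 library was left out there were 19 to 29 (6.29 to 15.5%), with the lowest count without C24 at ZT15. With median-of-ratios scaling 25 were called (12.3%) and with quantile normalization 21 (12.4%). None changed sign. Against the mid-parent 1 member, CAB3, was called when the mid-parent was taken on the log2 scale (0.523% of all).

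Shares in brackets are those of all loci tested past the same rule. Hybrids outside the parents by 1.5-fold, 1 member at ZT0 (0.384%), numbered 2 with median-of-ratios scaling (0.291%), 2 with quantile normalization (0.267%), 4 with a pseudocount of 0.1 (1.02%), 2 with 0.5 (0.639%), and 0 at 2-fold (0.0814%). At ZT6, 2 members (0.848%) became 8, 9 and 4 with median-of-ratios scaling, quantile normalization and a pseudocount of 0.1 (0.947, 1.05 and 1.33%), and 1 at 2-fold (0.145%). At ZT15, 2 (0.337%) became 7 and 4 with pseudocounts of 0.1 and 0.5 (0.651 and 0.442%), and 1 at 2-fold (0.0697%). C24 against Col by 2-fold at ZT0, 26 members (12%), became 47 with a pseudocount of 0.1 (15.9%). The cause of these shifts was not tested.

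Members with both hybrids below both parents, a comparison of scalings chosen after seeing the data, fell from 11 to 6 and 5 at ZT0 and from 12 to 5 and 7 at ZT6 with median-of-ratios scaling and quantile normalization. Between 104 and 145 of the 150 members were again among the first 150 when the score was taken with another scaling, pseudocount, floor on the level or choice of gene model, or over other sets of genotypes; the lowest number came from the mean over genotypes in place of the minimum. No paired analysis was possible because each group has 1 library and the labels give no replicate numbers; the time of sampling was a term of the fit. Loci under 1 RPKM rest on few reads, so their folds are uncertain.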
